A study of Mus musculus with 12 samples.

Results

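The genes described here encode 8 proteins of the postsynaptic density outside the PSD-95 and SAPAP families: *Lrrc7*, *Cnksr2*, *Frmpd4*, *Magi2*, *Homer1*, *Kalrn*, *Sipa1l1* and *Camk2a*. They were chosen by the measured peaks themselves, that is, by log2 fold change and IDR past the limits of the lists, so the presence of peaks is a description and not a result. A peak was counted for a gene where its centre lay inside the gene and on its strand, and this gave 48 of the 2057 whole-brain peaks and 8 of the 178 hippocampal peaks. In all, peaks of the lists fell in 510 annotated genes. SLM2 is the product of *Khdrbs3*. RNA cross-linked to it by UV light (3 exposures of 400 mJ/cm2) was recovered with an antibody and sequenced, and RNA of the same gel region taken before the pull-down served as the size-matched input. All tissue came from animals 30 days old. There are 2 eCLIP and 2 input libraries of wild-type (WT) whole brain, and as many of WT hippocampus. The 4 libraries of Slm2 KO hippocampus, described in the labels as a negative control, were not analysed here, so no peak below was set against tissue without SLM2. The labels give neither strain nor sex, and by the study's methods a hippocampal lysate pooled several hippocampi while a whole-brain lysate came from a single brain. Each tissue has 1 list in which the authors had merged the replicates, so no value below has a spread between replicates and no p-value was computed. The study's sequencing statistics give fewer reads for hippocampus than for whole brain, in the inputs most of all, so tissue and depth cannot be told apart. In such bulk lysates fewer cells of a type and less RNA per cell cannot be told apart either, and the lists hold no expression levels with which to check the tissue against its marker genes.

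SLM2 belongs to the STAR family of RNA-binding proteins. It acts in the nucleus on the splicing of pre-mRNA and recognises short U- and A-rich sequences through a KH domain. The postsynaptic density is the protein layer beneath the membrane of an excitatory synapse, in which scaffolds hold glutamate receptors next to the enzymes that they signal to. Densin, encoded by *Lrrc7*, is a leucine-rich repeat scaffold that binds CaMKII, and CNKSR2 is an adaptor that binds PSD-95 and takes part in Ras signalling. FRMPD4, also called Preso, and MAGI2, also called S-SCAM, are PDZ-domain scaffolds. HOMER1 ties group I metabotropic glutamate receptors to the Shank proteins. Kalirin (*Kalrn*) is an exchange factor and SIPA1L1 (SPAR) a GTPase-activating protein, both for small GTPases that shape dendritic spines, and *Camk2a* encodes the alpha subunit of CaMKII.

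The sequences under the peaks are shown first, since the description of the motif below rests on them. For the gene and tissue named on each line, the peak of highest log2 fold change of eCLIP over input is given as RNA, 5′ to 3′, in mm10 coordinates. Capitals mark the tetramer UWAA, that is UAAA or UUAA, searched on the transcribed strand only and with overlapping copies merged into 1 run of capitals. *Magi2* and *Homer1* have no hippocampal peak and *Camk2a* no whole-brain peak.
Lrrc7, hippocampus, chr3:158173149-158173298, minus strand, central 150 nt of 244: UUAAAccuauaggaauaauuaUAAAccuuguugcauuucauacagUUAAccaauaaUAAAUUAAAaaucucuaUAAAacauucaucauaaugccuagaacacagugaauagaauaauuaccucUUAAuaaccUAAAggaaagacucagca
Cnksr2, whole brain, chrX:157921615-157921680, minus strand: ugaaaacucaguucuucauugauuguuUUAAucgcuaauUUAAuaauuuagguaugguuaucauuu
Cnksr2, hippocampus, chrX:157920669-157920782, minus strand: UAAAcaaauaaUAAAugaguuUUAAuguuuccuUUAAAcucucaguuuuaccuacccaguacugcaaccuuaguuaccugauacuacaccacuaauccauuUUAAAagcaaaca
Frmpd4, whole brain, chrX:168003698-168003847, minus strand, central 150 nt of 195: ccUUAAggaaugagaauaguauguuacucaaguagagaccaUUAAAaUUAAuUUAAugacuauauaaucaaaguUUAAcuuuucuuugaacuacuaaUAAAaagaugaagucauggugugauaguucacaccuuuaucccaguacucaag
Frmpd4, hippocampus, chrX:168003515-168003634, minus strand: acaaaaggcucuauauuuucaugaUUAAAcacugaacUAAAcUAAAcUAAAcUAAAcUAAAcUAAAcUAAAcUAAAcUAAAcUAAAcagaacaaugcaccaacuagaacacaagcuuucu
Magi2, whole brain, chr5:20022637-20022786, plus strand, central 150 nt of 161: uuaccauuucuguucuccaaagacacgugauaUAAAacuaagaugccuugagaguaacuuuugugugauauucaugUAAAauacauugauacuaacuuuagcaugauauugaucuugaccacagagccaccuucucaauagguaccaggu
Homer1, whole brain, chr13:93368374-93368495, plus strand: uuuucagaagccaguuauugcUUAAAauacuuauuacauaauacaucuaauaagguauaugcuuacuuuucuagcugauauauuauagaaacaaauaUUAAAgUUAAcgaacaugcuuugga
Kalrn, whole brain, chr16:34461006-34461133, minus strand: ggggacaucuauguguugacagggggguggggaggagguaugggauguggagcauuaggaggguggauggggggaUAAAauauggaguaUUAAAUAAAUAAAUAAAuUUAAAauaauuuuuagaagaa
Kalrn, hippocampus, chr16:34191537-34191647, minus strand: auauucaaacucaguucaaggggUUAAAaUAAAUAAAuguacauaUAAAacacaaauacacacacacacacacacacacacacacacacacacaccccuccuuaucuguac
Sipa1l1, whole brain, chr12:82398627-82398776, plus strand, central 150 nt of 180: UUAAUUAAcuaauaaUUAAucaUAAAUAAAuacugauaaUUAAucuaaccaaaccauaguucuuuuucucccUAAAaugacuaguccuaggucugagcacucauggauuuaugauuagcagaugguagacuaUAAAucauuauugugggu
Sipa1l1, hippocampus, chr12:82273202-82273302, plus strand: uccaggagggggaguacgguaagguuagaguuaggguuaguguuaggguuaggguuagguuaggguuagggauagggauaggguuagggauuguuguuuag
All 11 are intronic. The hippocampal *Frmpd4* peak holds a tandem array of 10 copies of a UAAA-containing pentamer, and so does the whole-brain *Frmpd4* peak around it. The hippocampal *Sipa1l1* peak, in contrast, holds no UWAA at all.

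Whole-brain peaks were found in 7 of the 8 genes, all but *Camk2a*, and hippocampal peaks in 6, all but *Magi2* and *Homer1*. Among all 21951 protein-coding genes, 421 held a whole-brain peak (1.92%), and among the 5007 genes longer than 50 kb 368 did (7.35%). The corresponding shares were 0.378% and 1.36% in hippocampus. A peak in both tissues was present in 5 of the 8 genes, and in 0.273% of protein-coding genes (1.1% of those over 50 kb). Since the genes were selected for their peaks, nothing is read from these shares. All 8 genes exceed 50 kb, with lengths between 62.5 kb for *Camk2a* and 1478 kb for *Magi2*.

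The peaks were shared out very unevenly. *Lrrc7* held 22 whole-brain and 2 hippocampal peaks, *Cnksr2* 15 and 1, *Frmpd4* 4 and 2, and *Magi2* 4 and 0. *Homer1* held a single whole-brain peak, *Kalrn* and *Sipa1l1* 1 in each tissue, and *Camk2a* a single hippocampal one. In whole brain, *Lrrc7* thus ranked 22 and *Cnksr2* 27 by peak number among protein-coding genes, although per length *Cnksr2* was the denser, with 6.76 peaks per 100 kb against 4.59 in *Lrrc7*. In *Frmpd4*, *Magi2*, *Kalrn* and *Sipa1l1* the density was between 0.165 and 0.362 per 100 kb. The log2 fold change of the 48 whole-brain peaks had a median of 2.68 (range 2.03 to 4.41), and that of the 1956 other peaks in protein-coding genes a median of 2.55 (2.00 to 6.04). The 8 hippocampal peaks had a median of 2.48 (2.15 to 4.45) and the other 127 a median of 2.46 (2.01 to 5.10). Values under 2 are not in the lists. The weakest whole-brain peak, at the 3′ side of *Lrrc7*, stands at a log2 fold change of 2.03 and a −log10 IDR of 2.01, just inside both limits.

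**Figure D1:**
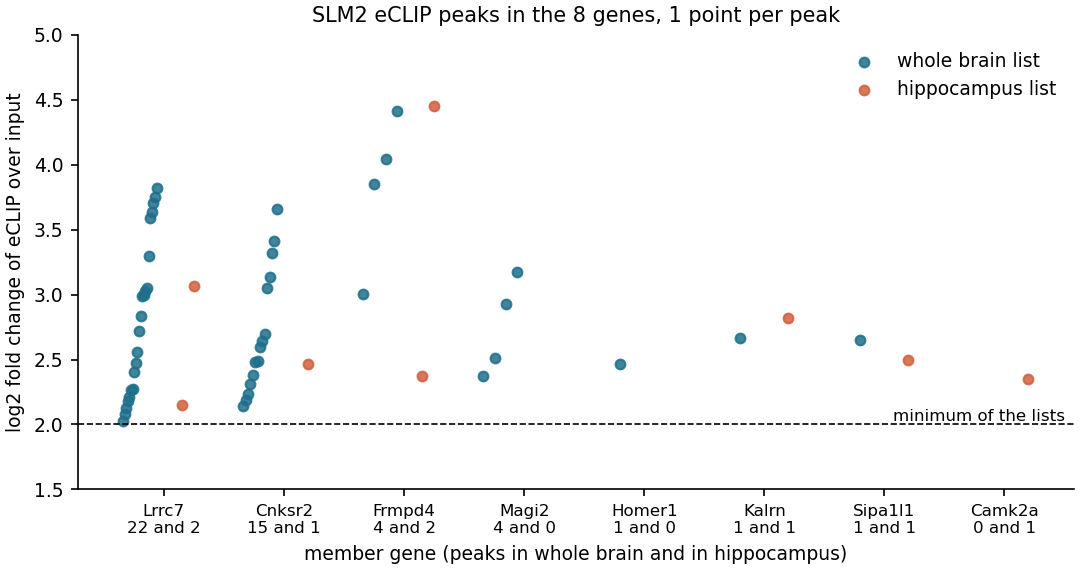
Log2 fold change of eCLIP over size-matched input for each peak in the 8 genes (y axis; 1 point per peak, spread sideways in ascending order), with whole brain left and hippocampus right of each gene; the dashed line is the minimum of 2 applied by the authors. *Frmpd4* has the highest value in either tissue (4.41 in whole brain, 4.45 in hippocampus), while *Lrrc7* and *Cnksr2* have the most peaks.

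In *Lrrc7* (chr3:158082891-158562221, minus strand) the strongest peaks formed a cluster in 1 short intron. Of its 22 whole-brain peaks, 8 lay in intron 1 of the transcript Lrrc7-205 (27 exons), which is 108316 nt long, and 7 in intron 18, which is 4346 nt long. The other 7 lay in introns 8 (2 peaks), 9, 10 (1 each) and 22 (3). The 7 peaks of intron 18 fell within 2733 nt (chr3:158171138-158173870) and covered 827 nt of them. In the direction of transcription their log2 fold changes were 2.83, 2.08, 3.75, 3.63, 3.82, 2.40 and 3.71. Their −log10 p for eCLIP against input, as computed by the authors, was 23.6, 7.33, 27.7, 27.5, 14.5, 7.12 and 17.8, and each had a −log10 IDR (the reproducibility score between replicates) of at least 3. The 15 peaks of the other introns had a median −log10 p of 3.77 and a maximum of 9.43, and 1 of them reached a −log10 IDR of 3. The highest values of the gene in log2 fold change, −log10 p and −log10 IDR were thus all in intron 18.

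Both hippocampal *Lrrc7* peaks lay inside that same intron. The first (chr3:158173102-158173345, log2 fold change 3.07, −log10 p 2.23) contained the whole of the 83-nt whole-brain peak at 3.75 and 127 nt of the next one at 3.63. The second (chr3:158173000-158173093, 2.15, −log10 p 0.84) lay within that next whole-brain peak over all of its 94 nt. No hippocampal peak lay in intron 1, where 6 of the 8 whole-brain peaks gathered between 17556 and 27099 nt after the start of the intron, at log2 fold changes of 2.18 to 3.30.

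Of all 56 peaks, 3 lay within 500 nt of an exon, each of them a whole-brain peak of *Lrrc7*. The last peak of intron 18 (chr3:158171138-158171316, log2 fold change 3.71) had its centre 471 nt before exon 19. A peak at 2.47 (chr3:158159639-158159842) followed exon 22 by 493 nt, and the peak at 2.03 (chr3:158148953-158149046) preceded exon 23 by 300 nt. The intron between exons 22 and 23 is not constitutive in the annotation. A 141-nt exon inside it is part of Lrrc7-201 and Lrrc7-206 and is absent from Lrrc7-205, and it lies 2812 nt after the peak at 2.47 and 7789 nt before the peak at 2.03. Exon 23 itself is part of 3 of the 4 coding transcripts that span it. The third peak of that intron (chr3:158149233-158149360) stood 597 nt before exon 23 at a log2 fold change of 3.59. Read counts over exons were not analysed here, so use of these exons was not measured. The study itself sequenced RNA of hippocampal neurons after conditional *Slm2* deletion and reported few altered splicing events. Its main text names no exon of *Lrrc7* or *Homer1* among them. It leaves further altered mRNAs unnamed, most of them very lowly expressed, and for these it reported an absence of eCLIP binding.

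**Figure D2:**
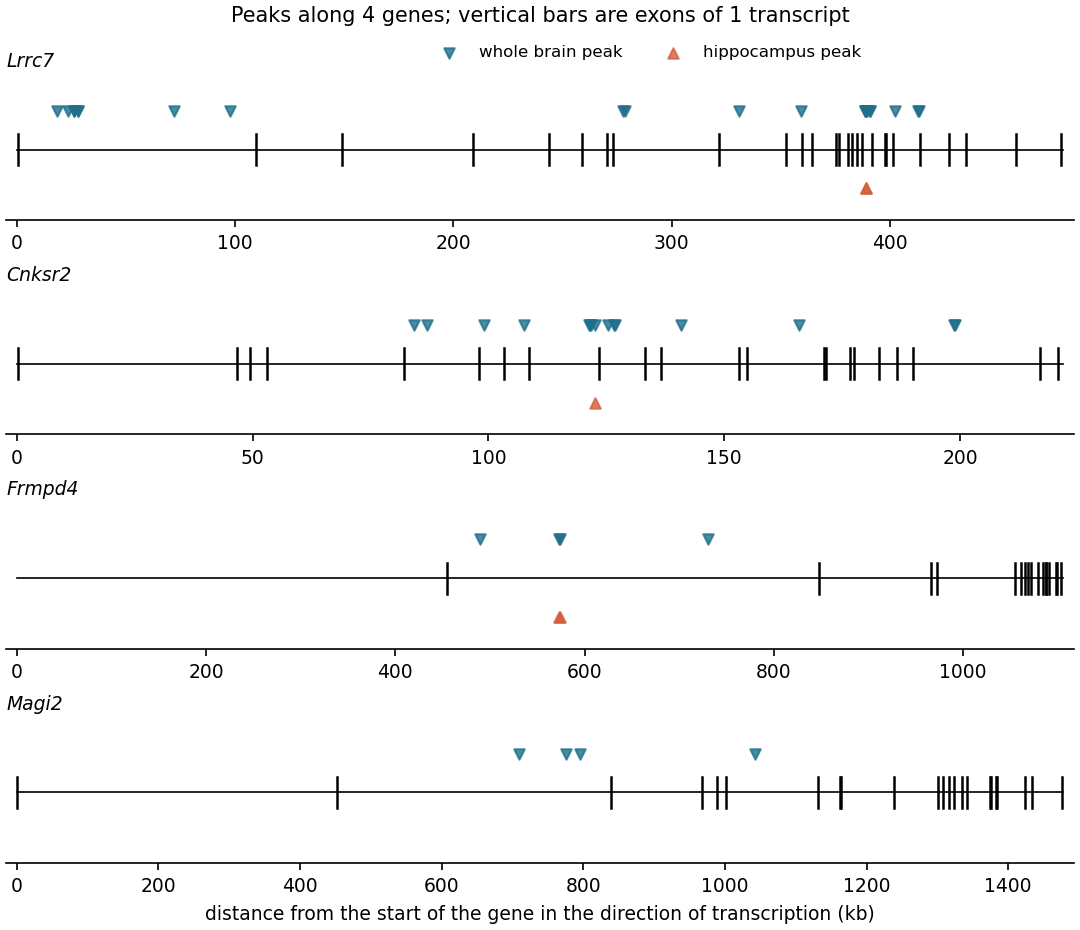
Position of whole-brain peaks (downward triangles) and hippocampal peaks (upward triangles) along the 4 genes with the most peaks, in kb from the start of the gene in the direction of transcription; vertical bars are the exons of 1 annotated transcript per gene. The hippocampal peaks of *Lrrc7*, *Cnksr2* and *Frmpd4* stand under whole-brain peaks, and *Magi2* has none.

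The 15 whole-brain peaks of *Cnksr2* (chrX:157821436-158043294, minus strand) were spread over 8 introns of Cnksr2-201 (22 exons). Intron 8 held 4 of them, intron 9 held 3, introns 5 and 20 held 2 each, and introns 6, 7, 11 and 13 held 1 each. The 7 peaks of introns 8 and 9 lay on either side of exon 9 within 5733 nt. Their log2 fold changes were between 2.19 and 3.66, with a median of 2.64, against 2.14 to 3.13 and a median of 2.43 in the 8 peaks of other introns. The only 2 of the 15 with a −log10 IDR of at least 3 were in intron 8. One of them (chrX:157920670-157920776, log2 fold change 3.41, −log10 p 13.7) lay wholly within the hippocampal *Cnksr2* peak (chrX:157920669-157920782, 2.46, −log10 p 1.68). This shared site is 831 nt before exon 9. The peak of highest log2 fold change, 3.66, was 1755 nt before the same exon and has no hippocampal counterpart. None of the *Cnksr2* peaks was within 500 nt of an exon.

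*Frmpd4* (chrX:167471309-168577231, minus strand) carried the peaks of highest enrichment, all 6 of them in intron 1 of Frmpd4-204, a stretch of 393650 nt. A pair of whole-brain peaks lay end to end with 1 nt between them (chrX:168003675-168003869 and chrX:168003478-168003673), at log2 fold changes of 4.41 and 4.05 and −log10 p of 24.5 and 36.9. Among all 2057 whole-brain peaks they ranked 20 and 35 by log2 fold change and 13 and 6 by −log10 p. Each contained 1 hippocampal peak whole. The hippocampal peak inside the second (chrX:168003515-168003634) had a log2 fold change of 4.45, the third highest of 178, and a −log10 p of 7.42. The one inside the first (chrX:168003738-168003826) was at 2.37 with a −log10 p of 1.10. In both tissues the highest log2 fold change of the gene thus lay in this pair, in different parts of it. The other whole-brain peaks, at 3.00 and 3.85, lay far from this place and had −log10 p of 3.31 and 3.49. The pair is 106134 and 105937 nt from the nearest annotated exon, which belongs to another transcript, Frmpd4-203.

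**Figure D3:**
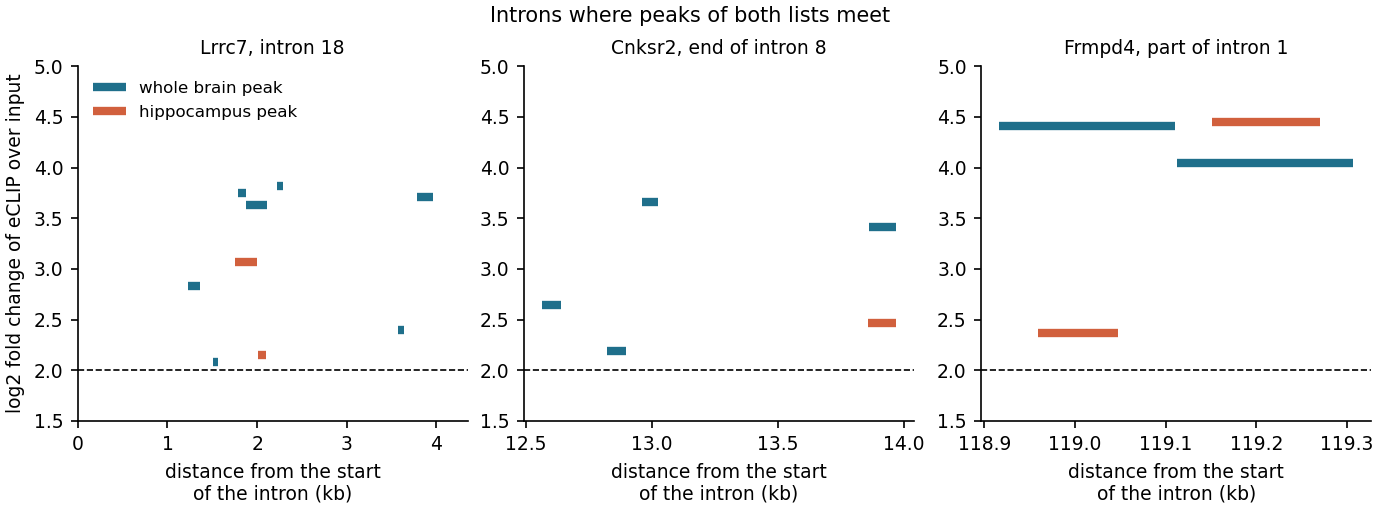
Extent of whole-brain and hippocampal peaks (horizontal bars; x axis in kb from the start of the intron) and their log2 fold change (y axis; the dashed line is the minimum of 2) in intron 18 of *Lrrc7*, near the end of intron 8 of *Cnksr2* and in part of intron 1 of *Frmpd4*. All 5 hippocampal peaks drawn overlap a whole-brain peak, and those of *Lrrc7* and *Cnksr2* lie below it in log2 fold change.

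In these 3 genes 5 of the 8 hippocampal peaks shared sequence with a whole-brain peak, whereas the hippocampal peaks of *Kalrn*, *Sipa1l1* and *Camk2a* shared none. Among the other hippocampal peaks in protein-coding genes, 48 of 127 (37.8%) overlapped a whole-brain peak. The 5 whole-brain peaks with a hippocampal partner were among the strongest of the 48, with log2 fold changes of 3.41 to 4.41 and −log10 p of 13.7 to 36.9. The 43 without a partner had log2 fold changes of 2.03 to 3.85 and −log10 p of 2.91 to 23.6. The windows of these 5 held on average 7.76 starts of UWAA per 100 positions, and those of the 43 held 4.34. Of the 5, the *Frmpd4* peak that covers the tandem array held 12.2.

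*Magi2* (chr5:19227036-20704792, plus strand), the longest of the 8 genes, held 4 whole-brain peaks, at log2 fold changes of 2.37, 2.51, 3.17 and 2.93 in the direction of transcription. The first 3 were in intron 2 of Magi2-201, which spans 386782 nt, and the last in intron 6. All 4 had a −log10 p under 4 (3.08 to 3.95). The single *Homer1* peak (chr13:93368374-93368495, plus strand, log2 fold change 2.47, −log10 p 3.07) lay in intron 5 of Homer1-201. Short forms of *Homer1*, which lack the coiled-coil of the long forms, end in intron 5. In the annotation Homer1-204 ends 7912 nt and Homer1-205 and Homer1-206 end 1240 nt before the start of the peak, and the next exon annotated downstream begins 17911 nt after its centre. The peak therefore lies beyond these 3 ends. Another transcript that ends in intron 5, Homer1-207, has its last exon downstream of the peak and spans it.

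*Kalrn* and *Sipa1l1* had 1 peak in each tissue, at unrelated places. The whole-brain *Kalrn* peak (chr16:34461006-34461133, log2 fold change 2.67, −log10 p 5.73) lay upstream of the start of Kalrn-201 and within intron 1 of Kalrn-207. The hippocampal one (chr16:34191537-34191647, 2.82, −log10 p 2.45) was 269477 nt away in intron 25 of Kalrn-201. It holds 19 copies of the dinucleotide AC in a row, beside 5 UWAA starts. The whole-brain *Sipa1l1* peak (chr12:82398612-82398791, 2.65, −log10 p 3.90) was in intron 11 and the hippocampal one (chr12:82273202-82273302, 2.50, −log10 p 1.23) in intron 2 of Sipa1l1-202. *Camk2a* held only a hippocampal peak, in intron 12, with a log2 fold change of 2.35 and a −log10 p of 1.10. For these 3 genes the lists thus name no place that both tissues share. In hippocampus, 5 of the 8 peaks, and 85 of the other 127, had a −log10 p below 2, which no whole-brain peak had.

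UWAA was denser at the peaks than beside them in each of the 7 genes with whole-brain peaks. Density is the number of UWAA starts per 100 positions in a window of 101 nt around the peak centre, in which UWAA can start at 98 positions, and the flanks are windows of the same width centred 500 nt upstream and downstream. Averaged first within genes, it was 5.19 ± 1.76 at whole-brain peaks and 1.72 ± 0.94 in their flanks (SD over 7 genes). The mean difference was 3.47 ± 2.65, with the smallest in *Sipa1l1* (3.06 at its peak and 2.55 in the flanks) and the largest in *Kalrn* (8.16 and 0). *Lrrc7* had 4.22 at its peaks and 1.90 in their flanks, *Cnksr2* 4.83 and 2.01, *Frmpd4* 6.89 and 0.893, *Magi2* 4.08 and 2.17, and *Homer1* 5.10 and 2.55. With windows over 20% masked left out, which removed *Kalrn*, the mean difference was 1.49 ± 1.24 (25 peaks in 6 genes). The *Magi2* windows left then held 3.06 and 2.04, with 4.08 and 1.53 in their flanks. In that gene the flanks thus held more on average, and in the other genes left the peaks did. The SD is a spread between genes chosen for their peaks, not a replicate error.

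**Figure D4:**
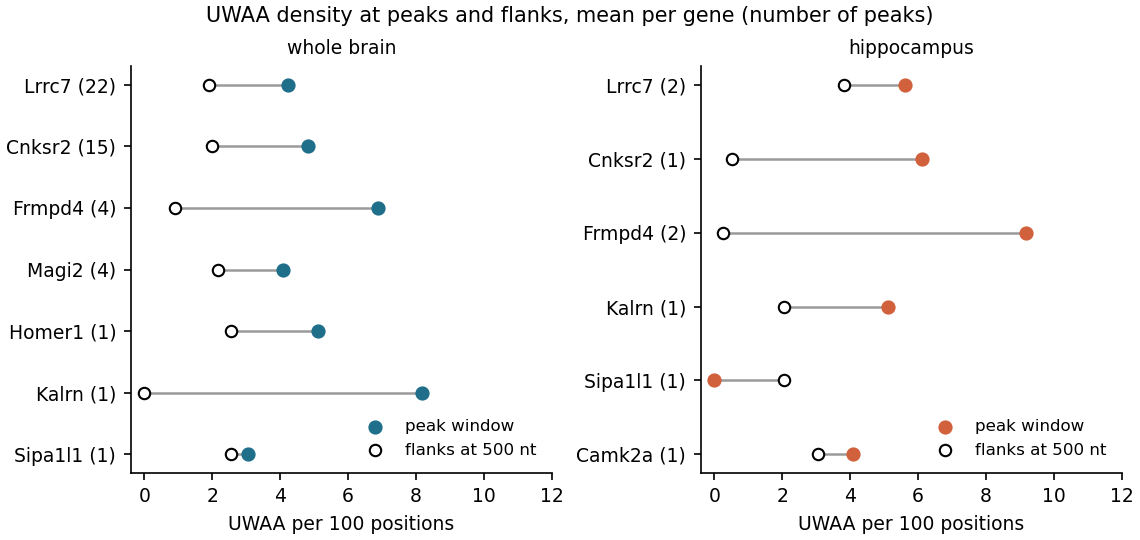
UWAA starts per 100 positions (x axis) in the 101-nt window at the peak centre (filled points) and in the flanks 500 nt away (open points), as the mean over the peaks of each gene, for whole brain (left panel) and hippocampus (right panel), with the number of peaks in parentheses. The filled point is to the right of the open one in every row except *Sipa1l1* in hippocampus, where the peak window holds no UWAA.

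In hippocampus the density was 5.02 ± 3.00 at peaks and 1.96 ± 1.39 in flanks (SD over 6 genes), a difference of 3.06 ± 3.81, and 5 of the 6 genes had more at the peak. *Frmpd4* had 9.18 at its peaks and 0.255 in their flanks, *Cnksr2* 6.12 and 0.51, *Lrrc7* 5.61 and 3.83, *Kalrn* 5.10 and 2.04, and *Camk2a* 4.08 and 3.06. The exception was *Sipa1l1*, with 0 at the peak and 2.04 in the flanks. Its peak contains repeats of a G-rich hexamer, with 3 copies of GUUAGG in a row. The difference in hippocampus thus did not exceed its spread between genes, and with *Frmpd4* left out it was 1.89.

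By peak rather than by gene, 47 of the 48 whole-brain windows held at least 1 UWAA. Of the 48, 40 held more than their flanks and 7 held less. The window without UWAA was that of the *Lrrc7* peak of highest log2 fold change (3.82, intron 18), with 2.04 in its flanks. The 7 *Lrrc7* peaks of intron 18 had a mean of 3.94, with 2.55 in their flanks. The 15 of its other introns had 4.35 and 1.60. Of the 1956 other whole-brain peaks in protein-coding genes 83.4% held UWAA, and 67.1% of their flank windows did. The mean density was 4.70 in the 48 windows and 3.59 in the 1956 others, with flanks at 1.86 and 1.80. In hippocampus 7 of the 8 windows held UWAA, against 70.1% of the 127 others. UWAA is so short that most flanks contain it too, and its presence in a window is a match of letters, not a binding site. The study had reported UWAA as enriched at SLM2 cross-link sites in these same eCLIP data, so an excess at these peaks is not independent of that report. A longer motif, which the study reported as the dominant one, is the heptamer UUAAAAA or UUUAAAA, each of which contains UWAA. The heptamer was found within 8 of the 48 whole-brain peaks (16.7%) and in 19.4% of the 1956 others. In hippocampus it was within 3 of the 8 peaks (37.5%) and in 9.45% of the 127 others. These shares were not tested.

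**Figure D5:**
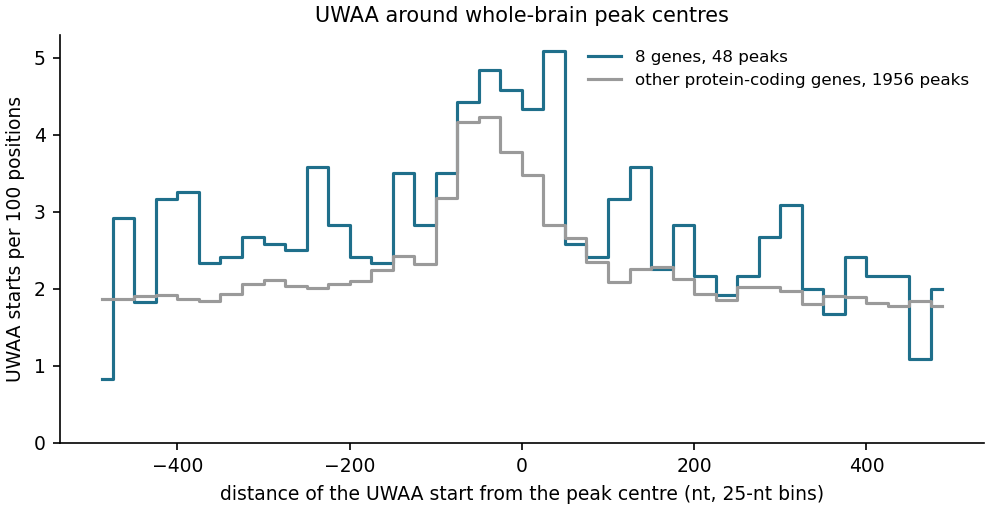
UWAA starts per 100 positions (y axis) in 25-nt bins of distance from the centre of whole-brain peaks (x axis, in the direction of transcription), for the 48 peaks of the 8 genes and for the 1956 other peaks in protein-coding genes. Both curves are highest within 75 nt of the centre, at up to 5.08 in the 8 genes and 4.23 in the others.

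All 56 peaks were intronic, none lay in a second gene on the same strand, none matched the sequencing adaptor over 10 nt, and the lists hold no peak on the opposite strand within these genes. Distances to the nearest exon of any transcript had a median of 3852 nt in whole brain (range 300 to 106134) and 1968 nt in hippocampus (833 to 106144), and 14 of the 48 whole-brain peaks were over 10 kb from an exon. By a cut-off of 20% masked bases, hippocampal windows were the more often repeat-masked. All 8 hippocampal windows were more than 20% masked, as were 23 of the 48 whole-brain windows, 63.0% of the 127 other hippocampal windows and 51.3% of the 1956 other whole-brain windows. Peaks without any masked base were about as frequent in both tissues among the others, at 32.3% in hippocampus and 30.3% in whole brain. Tandem repeats of a unit of 2 to 6 nt (at least 3 copies and 12 nt) were in 3 of the 8 hippocampal and 7 of the 48 whole-brain peaks, against 26.0% and 6.44% of the others. The part that repeats played in these peaks was not tested.

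The other genes of 2 related lists were read in the same way. Of 18 paralogs of the 8 genes, among them *Erbin*, *Homer2*, *Magi1*, *Trio* and *Camk2b*, 15 of them over 50 kb long, only *Camk2d*, the delta subunit of CaMKII, held 1, in whole brain at a log2 fold change of 2.89. Its window had no UWAA, with 4.08 per 100 positions in the flanks. Of 30 further scaffold and signalling genes of the excitatory synapse, 18 of them over 50 kb, 2 held whole-brain peaks. *Anks1b*, which encodes the PSD-95 partner AIDA-1, had 24 with log2 fold changes up to 3.28, and the scaffold gene *Tanc2* had 6, up to 3.58. No gene of either list had a hippocampal peak. Among the genes over 50 kb these are 1 of 15 (6.67%) and 2 of 18 (11.1%) in whole brain. The share of all protein-coding genes of that length was 7.35%. Both lists leave out the 8 genes, which were picked because they hold peaks. Nothing is therefore read from these shares about genes of the postsynaptic density as a whole. Long genes such as *Magi1* (608 kb), *Grip1* (633 kb) and *Shank2* (423 kb) were without a peak.

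The pair of peak counts of *Cnksr2*, 15 in whole brain and 1 in hippocampus, was the same in *Kcnd2*, a potassium channel gene (Euclidean distance of log2(count + 1) over the 2 lists of 0), and close in *Stxbp5l* (14 and 1, distance 0.0931) and in *Grm5*, the gene of the metabotropic glutamate receptor mGluR5 (17 and 1, 0.17). Nearest to *Lrrc7* were the kainate receptor gene *Grik2* (22 and 3, 0.415), the adhesion molecule gene *Cntnap2* (30 and 2, 0.431) and *Fam155a* (19 and 3, 0.461). These likenesses rest on 2 lists only.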

How the data were processed

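RNA bound by SLM2 in WT brain tissue of mice was measured by eCLIP. Per the labels and the study's methods, adaptors were removed with cutadapt 3.4, alignment to mm10 used STAR 2.7.9, and UMI-tools 1.1.1 collapsed PCR duplicates. The authors obtained peaks from CLIPper within the ENCODE eCLIP workflow and merged replicates by IDR. The deposited log2 fold changes compare eCLIP with input, and only peaks with at least 2 are listed. The −log10 p and the IDR score (−log10, minimum 2) were deposited beside them. Columns carry no names, and their meaning was taken from the study's supplementary table of peaks. Total read counts are not in these lists.

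Peaks were assigned by centre and strand to GENCODE vM21 genes. Their sequence came from GRCm38 (the assembly of mm10), with repeats masked in lower case. Introns are numbered in the principal transcript with the most exons (Kalrn-207 for the *Kalrn* peak outside Kalrn-201). Motif counting was tested on simulated G and C sequence with non-overlapping planted copies, and overlap counting on simulated intervals. Overlapping copies and the placing of windows and flanks were not part of that test. Singly described peaks were the highest in each gene and tissue, all hippocampal ones, those overlapping the other tissue and those within 500 nt of an exon; a few others are given as context, chosen after their values were seen. The sequence of the highest whole-brain *Lrrc7* peak is not reported here. Genes and lists were chosen with earlier results of these data known. Python 3.11.15, pandas 2.3.3, numpy 2.4.6, pysam 0.24.0 and matplotlib 3.10.9 were used. Alternative thresholds, overlap rules, windows and flanks were tried.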

Additional observations from a re-analysis of the deposited data

How the results depend on the processing

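Assignment by any overlap with the gene, and leaving out peaks that match the sequencing adaptor, changed no count. With a log2 fold change of at least 3, 18 whole-brain and 2 hippocampal peaks were left, and 2 genes kept a peak in both tissues. With a −log10 IDR of at least 3, 13 and 5 peaks were left. Leaving out peaks with a −log10 p below 2 left 3 hippocampal peaks and 3 genes with a peak in both tissues, *Lrrc7*, *Frmpd4* and *Kalrn*, and took none from whole brain. Merging peaks within 50 nt gave 45 sites in whole brain and 7 in hippocampus. The 5 hippocampal peaks that shared sequence with whole-brain peaks stayed 5 under a minimum of 50% of the shorter peak and with centres within 500 nt. Within 1000 nt of an exon there were 10 peaks in place of 3.

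The difference in UWAA density between peaks and flanks stayed above 0 under each alternative that could be computed. In whole brain it was between 1.49 (25 windows with at most 20% masked bases, 6 genes) and 3.46 (flank windows over another peak left out, an alternative added after seeing the data). For the heptamer in whole brain it was 0.054 ± 0.490 (SD over 7 genes), which is within its spread between genes. In hippocampus no window had 20% masked bases or less, so that alternative gave no value. The others gave 0.175 (the heptamer) to 5.44 (the 3 peaks with a −log10 p of at least 2, added after seeing the data). The heptamer value had an SD of 0.792 over 6 genes and so also lay within its spread. Without *Frmpd4* the hippocampal difference was 1.89, and without *Kalrn* the whole-brain difference was 2.69 (both added after seeing the data). Neither a replicate nor a library could be left out, since each list is merged over replicates. No paired analysis was possible because the lists hold no values per replicate and no test was made. The lists hold no read counts, so the depth behind a missing hippocampal peak was not measured.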
